A study of Bubalus bubalis with 6 samples.

Results

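Tubulin genes encode the building blocks of microtubules, and 9 of them were compared between proliferating and differentiating buffalo muscle stem cells. They were taken by gene symbol from the 24616 genes of the deposited gene table. A set of 10 symbols had been named, and TUBA1C, an α-tubulin, is not listed by symbol in that table and was not analysed here. The 9 genes are 2 α-tubulins (TUBA1A and TUBA1B), 6 β-tubulins (TUBB, TUBB2A, TUBB2B, TUBB3, TUBB4B and TUBB6) and the γ-tubulin TUBG1.

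An α- and a β-tubulin protein form the dimer that polymerises into the microtubule wall, and γ-tubulin seeds new microtubules. Vertebrates carry several α and β genes, called isotypes, which differ mostly in their tails and in the tissues that use them. When myoblasts fuse into myotubes, the radial microtubule array of the dividing cell is replaced by parallel arrays along the cell, and nucleation moves from the centrosome to the nuclear envelope.

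Polyadenylated RNA was sequenced from 3 GM samples and 3 DM samples of primary muscle stem cells (MuSCs), isolated from the longissimus muscle of water buffalo fetuses. GM samples were MuSCs proliferating in growth medium with fetal bovine serum. DM samples were MuSCs that had been grown nearly to confluence and switched to a differentiation medium with horse serum. The labels do not say whether the 3 samples of a group were cultures or animals of their own, so p-values measure the spread between these samples, which may be technical.

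Each sample had between 35615864 and 40305237 counts on genes. All 8 muscle lineage markers examined had counts, and their summed level ran from 2777 to 3311 CPM in the GM group and from 5359 to 7372 CPM in the DM group. CPM is the count of a gene per 1000000 counts of the library, with library sizes scaled by TMM normalization. MYOG, MYH3, ACTA1 and CKM, genes of differentiating muscle, were called higher by the thresholds stated with the tubulin counts, MYF5, a factor of myoblasts, was called lower, and PAX7, MYOD1 and DES were not called. PAX7 (log2 fold change -0.92, adjusted p = 0.00232 from edgeR) and MYOD1 (0.90, adjusted p = 0.00202) missed the fold threshold, without overlap between the groups. DES had a log2 fold change of -0.15 (adjusted p = 0.217 from edgeR), and its samples overlapped. The summed level of 8 markers of proliferating cells ran from 1597 to 1639 CPM in the GM group and from 347 to 441 CPM in the DM group, and all 8 were called lower. The summed level of 8 fibroblast markers, led by COL1A1 and COL3A1, ran from 24892 to 25122 CPM in the GM group and from 77344 to 97282 CPM in the DM group, with 6 of the 7 tested called higher. By these thresholds 10.3% of all tested genes were called lower and 15.0% were called higher. All 3 summed levels therefore differed between GM and DM samples, that of proliferating cells lower and those of muscle and fibroblast markers higher in DM. The part of these markers in the tubulin results that follow was not tested. In bulk RNA, fewer cells of a type and less RNA per cell cannot be told apart.

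Every tubulin gene of the set had a lower mean level in DM than in GM samples. Of the 9 genes, 4 fell by the thresholds of the comparison, TUBB4B, TUBA1B, TUBB2A and TUBB, and none was called higher. A gene was called where edgeR's quasi-likelihood test over 15576 genes gave an adjusted p-value under 0.05 together with a log2 fold change beyond 1 in size. By the same rule 10.3% of all tested genes were called lower, 15.0% were called higher and 25.3% were called in either direction. With no minimum fold change, 8 of the 9 genes had a lower level at an adjusted p-value under 0.05, against 31.4% of all tested genes, or 63.0% in either direction. The 3 GM and the 3 DM samples did not overlap in CPM for those same 8 genes, while the DM samples lay below all GM samples for 34.3% of all tested genes and on either side of them for 68.8%. TUBA1A was the exception to both statements. All tested genes together had a median of 0.03 in log2 fold change, and 48.7% of them lay below 0.

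**Figure D1:**
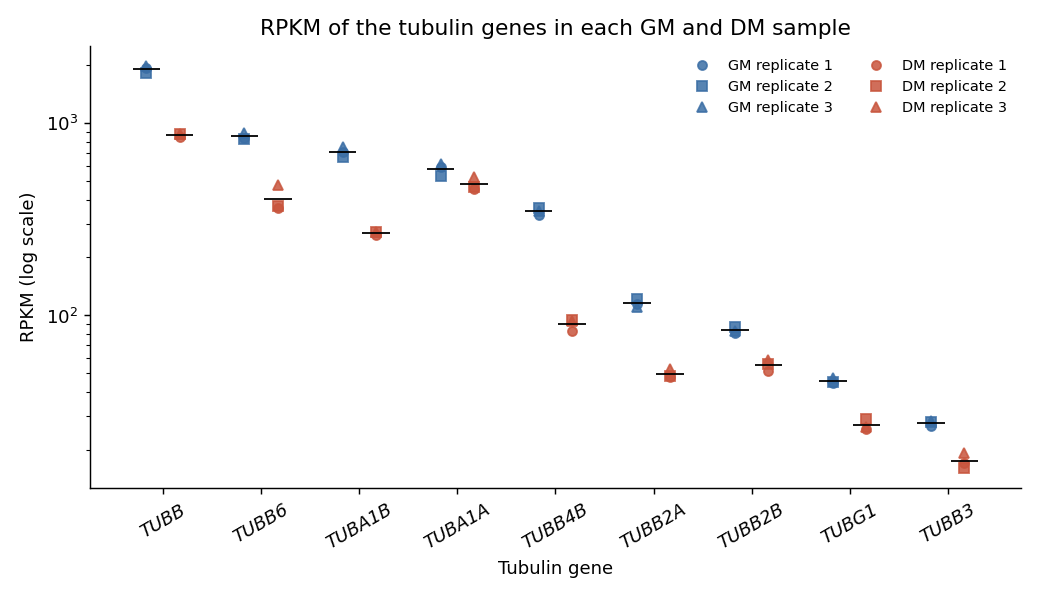
RPKM (log scale) of the 9 tubulin genes, with 1 point for each of the 3 GM samples (blue) and 3 DM samples (red) and a black line at the mean of each group. TUBB has the highest level in both groups, and TUBA1A the smallest distance between GM and DM samples.

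Of the α-tubulin genes, TUBA1B fell and TUBA1A was not called. TUBA1A is the α-tubulin best known from developing neurons, and TUBA1B is the broadly expressed α-tubulin of dividing cells. They lie on chromosome 5 of the annotation used, on the same strand, 38.8 kb apart with no listed gene between them. TUBA1B (ENSBTAG00000012244, 30864529 to 30868119) had 48996, 46494 and 47711 counts in GM replicates 1 to 3. DM replicates 1 to 3 had 16109, 17462 and 17845 counts. The DM samples were all low and close to each other, with a mean of 479 ± 3.02 CPM against 1186 ± 70.5 CPM in GM samples (SD, n = 3 each). TUBA1B fell by 1.31 on the log2 scale (standard error, SE, 0.063, adjusted p = 4.3e-08 from edgeR).

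TUBA1A (ENSBTAG00000001489, 30821251 to 30825700) had 44866, 40737 and 42492 counts in the GM samples and 30580, 32934 and 38134 counts in the DM samples. Its CPM values overlapped, since DM replicate 3 (1031 CPM) lay above GM replicate 2 (979 CPM). The log2 fold change was -0.17 (SE 0.0761, adjusted p = 0.0797 from edgeR), and no difference beyond the spread between replicates was shown. The adjusted p-value was under 0.05 in 3 alternatives, at 0.00593 without DM replicate 3, 0.0475 without GM replicate 2 and 0.0114 when TMM factors were left out, with log2 fold changes of -0.22, -0.22 and -0.26. RPKM divides the count by the listed length of the gene in kilobases and by the gene counts of the sample, per 1000000, without TMM factors. The deposited RPKM values of TUBA1A ran from 531 to 609 in GM samples and from 451 to 525 in DM samples and did not overlap.

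Within each sample, the ratio of TUBA1A to TUBA1B in RPKM was 0.833, 0.797 and 0.81 in GM samples and 1.73, 1.72 and 1.94 in DM samples. TUBA1B was thus the more abundant of both genes in each GM sample, and TUBA1A in each DM sample. An exact two-sided permutation test gave p = 0.1, the smallest possible with 3 samples in each group. Adjusted by Benjamini-Hochberg, the p-value was 0.167. The adjustment covered 5 ratios, all chosen after their values were seen. The coding sequences of α-tubulin genes are very similar, so the division of reads between TUBA1A and TUBA1B rests on how the authors' counting treated reads that match both.

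Among the β-tubulins, TUBB4B (ENSBTAG00000025274, chromosome 11, 105860110 to 105862549), a widely expressed isotype, showed the largest fold change of the 9 genes. It had 20903, 22770 and 20033 counts in GM samples and 4624, 5554 and 5593 counts in DM samples. The groups were far apart, with DM samples at 27.8% of the GM mean. TUBB4B fell by 1.84 on the log2 scale, from 527 ± 21.7 to 147 ± 8.41 CPM (SE 0.0669, adjusted p = 7.82e-09 from edgeR). Its interval overlaps that of FAM166A on the opposite strand by 4 bases.

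TUBB (ENSBTAG00000006969, chromosome 23, 28101727 to 28105320), the class I β-tubulin of dividing cells, was the most abundant tubulin gene and ranked 50 among all listed genes by mean RPKM. It had 129757, 123011 and 121432 counts in GM samples and 50719, 54599 and 56002 counts in DM samples. The DM samples were again low and tight, with a coefficient of variation of 0.719% in CPM against 4.08% in GM samples. TUBB fell by 1.04 on the log2 scale, from 3096 ± 126 to 1502 ± 10.8 CPM (SE 0.0588, adjusted p = 1.19e-07 from edgeR). This call sat close to the fold threshold. It was lost when edgeR tested only genes that met the study's expression filter, an RPKM of 1 or more in over 50% of the samples (log2 fold change -0.99), and when a fold change of 2 was itself the null hypothesis (adjusted p = 0.394).

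TUBB6 (ENSBTAG00000046337, chromosome 24, 43249500 to 43250564), the class V β-tubulin, sat at the other side of the same threshold. It had 35375, 35542 and 34783 counts in GM samples and 13730, 14734 and 19338 counts in DM samples. DM replicate 3 was higher than the other DM samples, and all 3 remained below the GM samples. The log2 fold change was -0.98 (SE 0.0977, adjusted p = 7.96e-06 from edgeR), and the gene was not called. Without DM replicate 3 it was -1.10 and the gene was called, and it was also called when TMM factors were left out (-1.08). TUBB6 is listed with a length of 1065 bases, equal to its interval, so the gene model used has no intron. The intervals of the other 8 genes exceed their listed lengths. A reference annotation of another buffalo assembly gives TUBB6 an interval of 8181 bases, so the model used may cover only part of the gene.

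**Figure D2:**
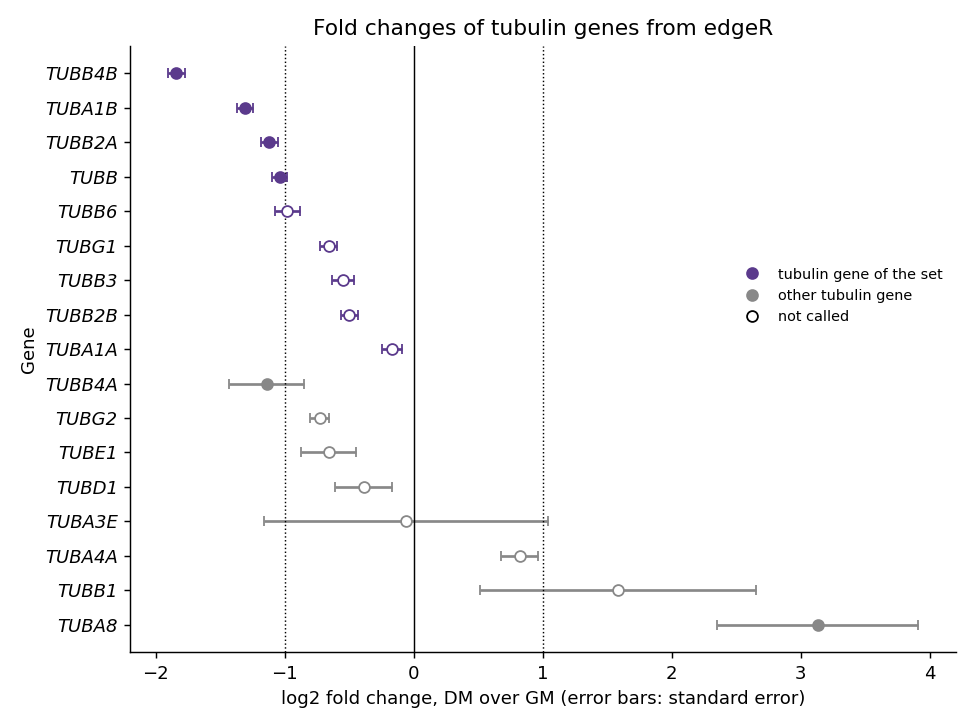
Log2 fold change (DM over GM) of each tubulin gene from edgeR, with its SE; purple marks the 9 genes of the set, grey other tubulin genes, filled symbols called genes, and dotted lines a log2 fold change of -1 and 1. All 9 purple symbols lie below 0, from -1.84 for TUBB4B to -0.17 for TUBA1A, with TUBB and TUBB6 on either side of the dotted line at -1.

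The class II β-tubulins TUBB2A and TUBB2B lie on chromosome 23, on the same strand and 32.5 kb apart, with no listed gene between them. They encode nearly identical proteins, and TUBB2B is known for its role in the developing brain. TUBB2A (ENSBTAG00000046886, 50390117 to 50394279) had 7563, 8055 and 6638 counts in GM samples and 2792, 2959 and 3314 counts in DM samples. It fell by 1.12 on the log2 scale, from 184 ± 9.34 to 84.4 ± 4.6 CPM (SE 0.0675, adjusted p = 1.88e-07 from edgeR). With a fold change of 2 as the null hypothesis that call was lost (adjusted p = 0.0817).

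TUBB2B (ENSBTAG00000004093, 50354843 to 50357631) had 4649, 5047 and 4364 counts in GM samples and 2638, 3001 and 3196 counts in DM samples. The groups did not overlap, but at -0.50 the log2 fold change stayed within the threshold (SE 0.0651, adjusted p = 6.04e-05 from edgeR). The ratio of TUBB2B to TUBB2A in RPKM was 0.703, 0.717 and 0.752 in GM samples and 1.08, 1.16 and 1.1 in DM samples, so TUBB2A was the higher of both in each GM sample and TUBB2B in each DM sample. The exact permutation test again gave p = 0.1 (0.167 adjusted over the 5 ratios). The similarity of the sequences limits this ratio as it does that of the α-tubulins.

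TUBB3 (ENSBTAG00000023730, chromosome 18, 14761260 to 14769914), the class III β-tubulin used as a marker of neurons, had the lowest level of the set. It had 1862, 1970 and 1810 counts in GM samples and 1074, 1051 and 1293 counts in DM samples. All DM samples were below all GM samples, at 31.8 ± 3.11 CPM against 46.7 ± 1.54 CPM, and the gene was not called (log2 fold change -0.55, SE 0.0827, adjusted p = 0.000169 from edgeR). Of 10 neuron markers, 9 were listed. RBFOX3, ELAVL3 and ELAVL4 had at most 1 count in any sample and SYP at most 8. The neurofilament genes NEFL and NEFM held most of the list's level in GM samples. NEFL fell by 1.07 on the log2 scale, from 128, 117 and 76 to 31, 29 and 76 counts, and NEFM was not called (log2 fold change -0.86, adjusted p = 0.00511 from edgeR). PRPH rose from 10, 15 and 6 to 27, 21 and 29 counts. The summed level of the 9 ran from 5.46 to 6.54 CPM in the GM group and from 2.95 to 9 CPM in the DM group, below that of TUBB3 alone. SNAP25 had at most 3 counts in 5 samples and 153 counts in DM replicate 3, and was called higher. The part of these markers in the TUBB3 values was not tested.

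TUBG1 (ENSBTAG00000048152, chromosome 19, 43316471 to 43321165) encodes the γ-tubulin of the nucleating ring complex. It had 2933, 3012 and 2863 counts in GM samples and 1514, 1783 and 1653 counts in DM samples, with no overlap. The mean was 72.9 ± 2.43 CPM in GM and 46.1 ± 2.29 CPM in DM samples, and the gene was not called (log2 fold change -0.66, SE 0.0674, adjusted p = 9.31e-06 from edgeR). TUBG2, the other γ-tubulin gene, lies 39.3 kb away on the same strand and had a log2 fold change of -0.73 (adjusted p = 8.29e-06 from edgeR), also not called. The ratio of TUBG2 to TUBG1 in RPKM was 0.416 ± 0.0165 in the GM group and 0.397 ± 0.0252 in the DM group, and the samples overlapped (exact permutation p = 0.4, 0.5 adjusted over the 5 ratios).

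Levels of different genes were set side by side only in RPKM. In GM samples the order of the mean RPKM was TUBB (1909), TUBB6 (849.8), TUBA1B (708), TUBA1A (576), TUBB4B (348), TUBB2A (116), TUBB2B (83.9), TUBG1 (45.7) and TUBB3 (27.6), and no neighbours in this order overlapped between samples. In DM samples TUBB led again with a mean RPKM of 866, followed by TUBA1A (480) and TUBB6 (403), whose samples overlapped. TUBA1B (267) and TUBB4B (90.6) came next. TUBB2B (55.4) and TUBB2A (49.8) overlapped, and TUBG1 (27) and TUBB3 (17.6) remained last. The place of TUBB6, and its share of the β-tubulins below, rest on its short listed gene model.

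The 9 genes together took 0.742, 0.711 and 0.77% of all gene counts in the GM samples and 0.348, 0.36 and 0.383% in the DM samples. The summed RPKM of the 6 β-tubulins was 3334 ± 96.2 in GM samples and 1482 ± 83.8 in DM samples. That of both α-tubulins was 1285 ± 82.4 in GM samples and 747 ± 42.5 in DM samples. The ratio of the β to the α sum was 2.56, 2.71 and 2.53 in GM samples and 1.98, 1.99 and 1.98 in DM samples, so the DM samples lay below the GM samples and close to each other. TUBA1C is missing from the α sum.

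The composition of each pool was described as the share of each gene in the summed RPKM of the α or of the β genes. TUBA1A took 44.9 ± 0.552% of the α pool in GM samples and 64.2 ± 1.61% in DM samples. In the β pool TUBB held 57.2 ± 1.1% in GM and 58.5 ± 2.58% in DM samples, and TUBB6 held 25.5 ± 0.462% and 27.1 ± 2.7%, with overlap between the groups for both. The share of TUBB4B was 10.4 ± 0.588% in GM samples and 6.11 ± 0.352% in DM samples. The shares of TUBB2B (2.52 ± 0.152% and 3.74 ± 0.0953%) and TUBB3 (0.828 ± 0.0304% and 1.19 ± 0.0706%) were higher in DM samples, and that of TUBB2A overlapped (3.48 ± 0.271% and 3.36 ± 0.0374%). The groups did not overlap for 5 of the 8 genes, TUBA1A, TUBA1B, TUBB2B, TUBB3 and TUBB4B. TUBA1A and TUBA1B make up the whole α pool, so their shares mirror each other and restate the difference in their ratio. The shares within the β pool also depend on each other.

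**Figure D3:**
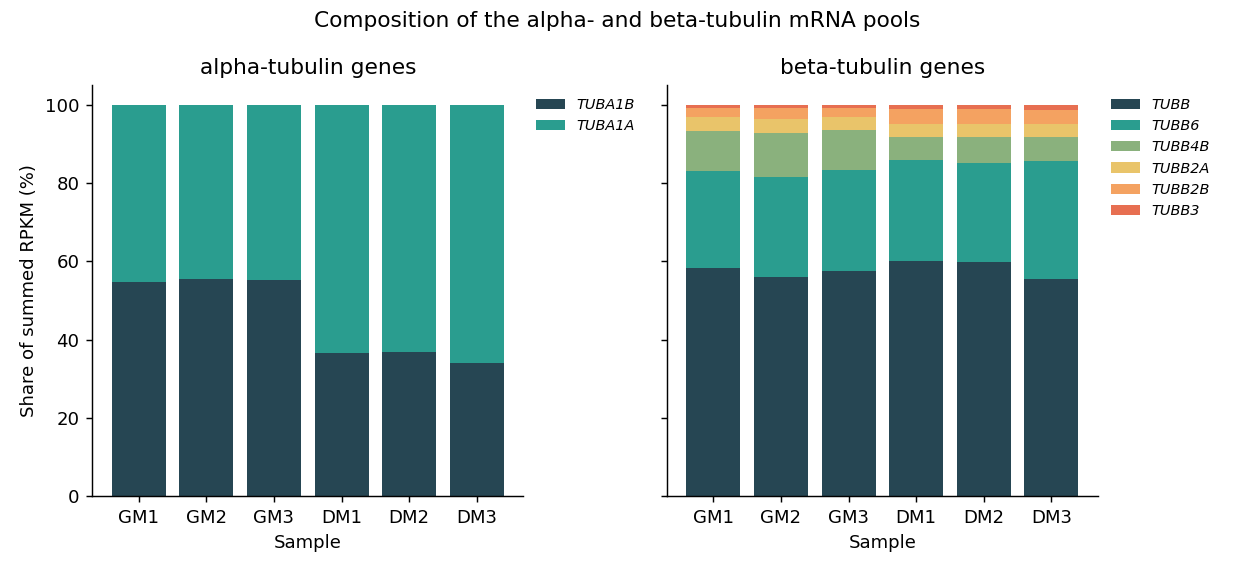
Share (%) of each gene in the summed RPKM of the α-tubulin genes (left) and of the β-tubulin genes (right), stacked, for each GM and DM sample. TUBA1A takes 44.4 to 45.4% of the left GM bars and 63.2 to 66% of the left DM bars, and TUBB4B takes 10.1 to 11.1% of the right bars in GM and 5.88 to 6.52% in DM samples.

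The levels of TUBB4B and TUBB6 were also set against that of TUBB within each sample. TUBB4B over TUBB in RPKM was 0.173, 0.198 and 0.177 in GM samples and 0.0977, 0.109 and 0.107 in DM samples, without overlap (exact permutation p = 0.1, 0.167 adjusted). TUBB6 over TUBB was 0.43, 0.455 and 0.451 in GM samples and 0.427, 0.425 and 0.544 in DM samples, and the groups overlapped (exact permutation p = 1). DM replicate 3 was the highest of the 6 samples in this ratio. Both ratios and the β shares above also rest on how the authors' counting treated any reads that match several β-tubulin genes.

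The mRNA table holds 11 transcripts of the 9 genes, and 7 genes have a single transcript with the counts of the gene. edgeR on 16352 mRNAs called 5 of the 11 transcripts, all lower, against 10.1% of tested mRNAs called lower and 25.6% called in either direction. They belong to the same 4 genes. Both transcripts of TUBB2A fell, by 1.15 and 1.11 on the log2 scale, and both transcripts of TUBB2B had a log2 fold change of -0.52. The summed transcript counts exceeded the gene counts by 39 to 42.1% for TUBB2A and by 91.2 to 92.1% for TUBB2B, so reads shared by both transcripts of a gene were counted for each.

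TUBB4B, the member with the largest fall, was compared with 8972 other genes of at least 10 CPM by the root mean square difference of centred log2 CPM over the 6 samples. The most similar were DCTPP1 (0.0491), NASP (0.0496) and ENSBTAG00000012861 (0.0511), which is listed by identifier only. No tubulin gene of the set was called higher, so no such comparison was made for a rise.

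Of the other tubulin genes, 2 of the 8 tested were called. TUBB4A, an isotype of the brain, fell by 1.14 on the log2 scale from 56, 57 and 53 counts in GM samples to 18, 27 and 22 counts in DM samples. TUBA8, an α-tubulin known from muscle and testis, rose from 2 counts in each GM sample to 20, 4 and 25 counts in DM samples, a ratio of 9.20 with an exact 95% counting interval of 3.94 to 26.3, which covers counting error only. TUBA4A, an α-tubulin known from mature tissues including muscle, had 700, 623 and 695 counts in GM samples and 847, 963 and 1365 counts in DM samples. All DM samples of TUBA4A lay above all GM samples, with mean RPKM of 11.8 in GM and 19.4 in DM samples, and the gene was not called (log2 fold change 0.82, SE 0.143, adjusted p = 0.00053 from edgeR). The 2 called genes are 25% of the 8 tested, near the 25.3% of all genes.

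New tubulin is folded by the CCT chaperonin, which receives it from prefoldin, and is joined into dimers by the cofactors TBCA to TBCE. Of the 13 tested CCT and prefoldin genes, 4 were called, 3 lower and 1 higher, or 30.8% against 25.3% of all genes. The list median was -0.74 in log2 fold change. CCT5 fell by 1.26 on the log2 scale, from 552 ± 16.9 to 231 ± 21.8 CPM (SE 0.0748, adjusted p = 1.71e-07 from edgeR). TCP1 fell by 1.09 and CCT7 fell by 1.04. The call for CCT6B, from 3, 2 and 2 to 5, 13 and 5 counts, held in 4 of the 13 alternatives that tested it. PFDN4 is listed on 2 rows and was not counted.

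None of the 8 tested folding cofactor genes was called by edgeR or by DESeq2, against 25.3% of all genes called by edgeR. An unadjusted p-value under 0.05 was found for 4, and the list median was -0.07 in log2 fold change. Of all tested genes, 63.0% had an adjusted p-value under 0.05 when no minimum fold change was set. At an adjusted p-value under 0.05 without a minimum fold change, TBCA was lower in DM samples (log2 fold change -0.40, adjusted p = 0.000451), as was ARL2 (-0.63, adjusted p = 3.45e-05). TBCE was higher (0.35, adjusted p = 0.00191), as was TBCEL (0.89, adjusted p = 2.94e-06). TBCB, TBCC and TBCD had log2 fold changes of -0.04, -0.05 and -0.10, with adjusted p-values of 0.626, 0.64 and 0.158 from edgeR.

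Among 22 tested genes of the γ-tubulin complex and of nucleation, 4 were called (18.2%, against 25.3% of all genes), 3 lower and 1 higher. A log2 fold change below 0 was found for 19 of the 22, against 48.7% of all tested genes, with a list median of -0.64. PCNT, which encodes the centrosome scaffold pericentrin, fell by 1.36 on the log2 scale from 83 ± 4.71 to 32.3 ± 2.93 CPM (adjusted p = 2.02e-07 from edgeR). HAUS8 and HAUS5, subunits of the augmin complex that branches microtubules, fell by 1.35 and 1.27. The gene called higher was SYNE1, whose protein nesprin-1 sits in the nuclear envelope and is involved in microtubule nucleation there in myotubes. SYNE1 rose from 148 ± 11.5 to 317 ± 44.2 CPM, or by 1.10 in log2 fold change (SE 0.102, adjusted p = 4.41e-06 from edgeR). It was named after its value was seen, as were HAUS5, TCP1 and CCT7. AKAP6, AKAP9 and PCM1 of the same list, also named after their values were seen, were not called. Their log2 fold changes were 0.25, -0.13 and 0.01 (adjusted p = 0.182, 0.185 and 0.891 from edgeR), and their GM and DM samples overlapped in CPM.

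Of 16 tested enzymes that modify tubulin, 2 were called (12.5%, against 25.3% of all genes). TTLL4, a glutamylase that adds side chains to tubulin tails, fell by 1.31 on the log2 scale, from 50.6 ± 1.33 to 20.5 ± 0.477 CPM. AGBL3, a carboxypeptidase of the family that trims such tails, rose from 12, 12 and 8 to 44, 37 and 50 counts, or by 2.20 in log2 fold change (SE 0.351). The median of this list was -0.08.

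Among microtubule-associated and plus-end proteins 12 of 35 tested genes were called (34.3%, against 25.3% of all genes), of which 8 were higher and 4 lower. Their list median rounds to 0 in log2 fold change. The 4 called lower were CKAP5, GAS2L3, MTUS1 and CLIP4, named after their values were seen, with log2 fold changes of -1.30, -1.16, -1.11 and -1.81. CKAP5 had the highest level of them and fell from 377 ± 12.9 to 153 ± 10.2 CPM (adjusted p = 6.47e-08 from edgeR). TRIM54, TRIM55 and TRIM63, the MURF proteins that link microtubules and the sarcomere, all rose. TRIM54 went from 124, 70 and 140 counts in GM samples to 519, 556 and 821 counts in DM samples, or by 2.66 in log2 fold change (SE 0.255, adjusted p = 5.86e-06 from edgeR). TRIM55 rose by a log2 fold change of 2.04 and TRIM63 by 1.64. MAPRE3, the plus-end protein EB3, rose from 12.4 ± 0.622 to 37.2 ± 4.36 CPM, or by 1.59 in log2 fold change (SE 0.0985).

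DCX, the doublecortin of migrating neurons, rose from 4, 1 and 3 counts to 73, 92 and 177 counts. The ratio was 48.2 with an exact 95% counting interval of 24.2 to 112, which covers counting error only. Its log2 fold change was 5.51 (SE 0.505, adjusted p = 4.12e-06 from edgeR). MAP4, the main microtubule-associated protein of non-neuronal cells, had 565 ± 11.7 CPM in GM and 422 ± 26.6 CPM in DM samples and was not called (log2 fold change -0.42, adjusted p = 0.000182 from edgeR).

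Proteins that destabilise or cut microtubules had 5 calls among 14 tested genes (35.7%, against 25.3% of all genes), all lower (10.3% of all genes), and a list median of -0.59 in log2 fold change. KIF2C, a mitotic kinesin that takes microtubule ends apart, fell by 2.43 on the log2 scale from 105 ± 4.66 to 19.4 ± 2.04 CPM (adjusted p = 7.67e-09 from edgeR). STMN1, or stathmin, which binds free tubulin dimers, fell from 366 ± 14.8 to 172 ± 25.3 CPM, by 1.09. Its call was lost without DM replicate 1 (log2 fold change -0.97) and with a fold change of 2 as the null hypothesis. STMN2, of the same family and named after its value was seen, had 294 ± 19.1 CPM in GM and 397 ± 158 CPM in DM samples. DM replicate 3 had 579 CPM of STMN2, and the gene was not called (log2 fold change 0.43, adjusted p = 0.0916 from edgeR). KATNAL2, a katanin-like gene, fell by 2.01 from 15, 13 and 14 to 4, 3 and 2 counts.

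Tubulin mRNA is degraded when free tubulin dimers are in excess, through TTC5, which binds the nascent tubulin chain, and its partners SCAPER and CNOT11. None of these 3 genes was called by edgeR or by DESeq2, against 25.3% of all genes called by edgeR. An unadjusted p-value under 0.05, with a lower level in DM samples, was found for 2 of them. The list median was -0.46 in log2 fold change. TTC5 had 593, 537 and 531 counts in GM samples and 338, 360 and 374 counts in DM samples (log2 fold change -0.46, adjusted p = 0.00214). SCAPER had a log2 fold change of -0.58 (adjusted p = 0.000499 from edgeR) and CNOT11 of 0.03 (adjusted p = 0.743 from edgeR). With no minimum fold change, 63.0% of all tested genes had an adjusted p-value under 0.05. Of 13 tested genes of kinesin and dynein motors and their partners, 1 was called (7.69%, against 25.3% of all genes). It was KIF5A, a kinesin-1 heavy chain known from neurons, which rose from 22, 20 and 16 to 119, 134 and 138 counts (log2 fold change 2.92). KIF5B and KLC4, named after their values were seen, were higher but not called (log2 fold changes 0.57 and 0.81, adjusted p = 4.04e-05 and 2.47e-06 from edgeR). KLC2 and DYNLL2, also named after their values were seen, were lower but not called (-0.98 and -0.68, adjusted p = 1.64e-06 and 4e-06 from edgeR). A log2 fold change below 0 was found for 8 of the 13, against 48.7% of all tested genes. The median of the motor list was -0.36.

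**Figure D4:**
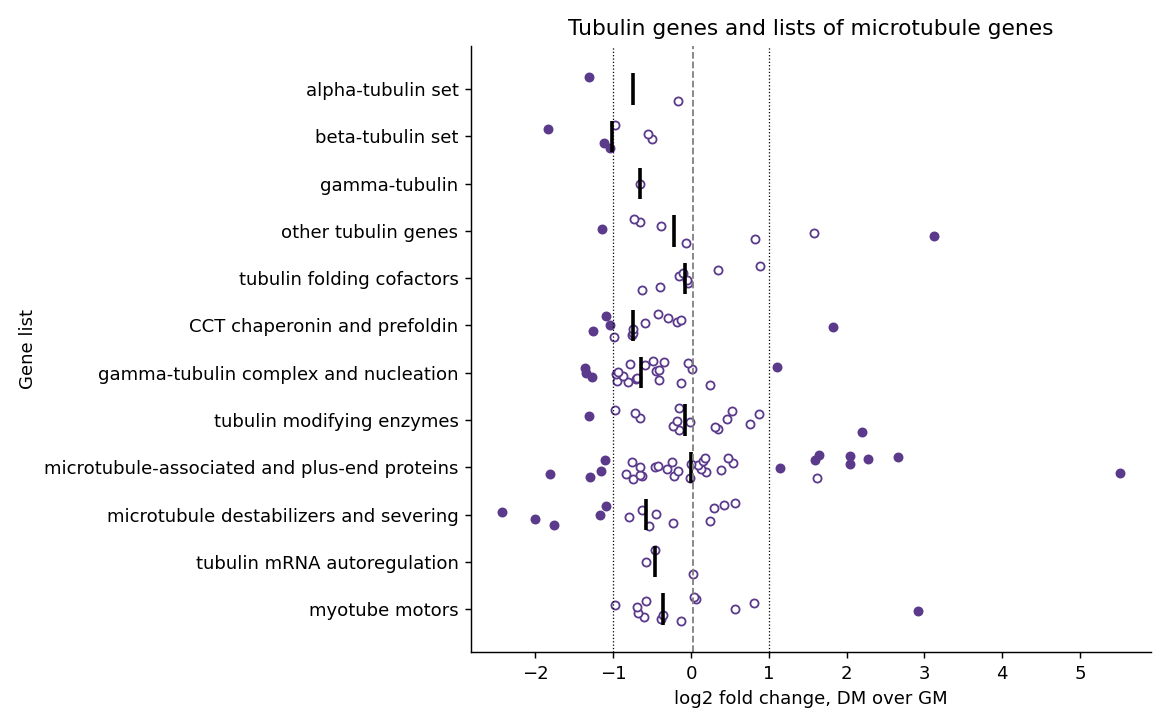
Log2 fold change (DM over GM) of each tested gene in the tubulin set and in 9 lists of microtubule genes, filled where called, with a black bar at the median of each list, a dashed line at the median of all genes (0.03) and dotted lines at -1 and 1. The 6 β-tubulins lie wholly below 0, while the microtubule-associated proteins spread to both sides, up to 5.51 for DCX.

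For each of the 9 tubulin genes the log2 fold change was below 0 in all 15 alternatives run. The range over them was -1.94 to -1.79 for TUBB4B, -1.41 to -1.25 for TUBA1B and -0.26 to -0.11 for TUBA1A. The range for TUBB (-1.14 to -0.99) and that for TUBB6 (-1.10 to -0.90) crossed the threshold.

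**Figure D5:**
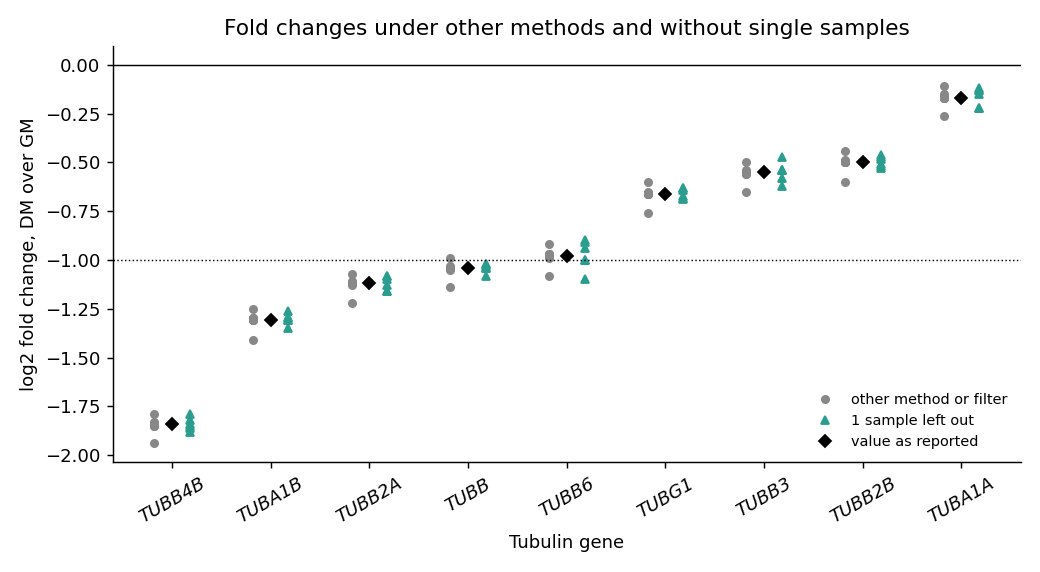
Log2 fold change (DM over GM) of the 9 tubulin genes as reported (black), with other methods, normalizations or filters (grey) and with 1 sample left out (green); the dotted line marks -1. All points lie below 0, and those of TUBB and TUBB6 fall on both sides of the dotted line.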

How the data were processed

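Libraries of polyadenylated RNA from 6 samples were compared, 3 GM and 3 DM, grouped by sample title. Raw counts per gene and per mRNA transcript were deposited by the authors, whose supplement names HISAT2 and a buffalo genome. The submitters' processing notes name Bowtie 0.12.2 with mm8 and mm9, and the tables list cattle Ensembl identifiers without a build, so coordinates are given as listed. The strand setting and the handling of reads that match several genes are not given in the sources used here. The deposited RPKM values were made by the authors from counts, the Length column and summed counts.

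Counts were tested with edgeR 4.0.16 (R 4.3.3; glmQLFit, glmQLFTest, TMM) on features with at least 10 counts over the 6 samples, with Benjamini-Hochberg adjustment over all features. Standard errors come from the F statistic. Shares and ratios used Python 3.11.15 and scipy 1.17.1. The pipeline was tested on simulated data. The members and the lists of genes (9 microtubule lists and markers of cell types, from general knowledge) were chosen with earlier results of these data known. Named genes were all members, the 2 called genes of largest change per list, and a fixed set of cofactors and associated proteins. Alternatives were DESeq2 1.42.0, 2 other normalizations, 3 other filters, 2 other fold thresholds, a replicate block and each sample left out. The ncRNA table and the authors' own fold changes, p-values and q-values were not used. No sample column was left unmapped. No sequences are shown, since the reference table used here holds no sequences.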

Additional observations from a re-analysis of the deposited data

How the results depend on the processing

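The number of tubulin genes called lower, 4 as reported, moved to 8 with no minimum fold change and to 2 with a fold change of 2 as the null hypothesis. It ranged from 4 to 5 over the fits that left out a sample, with TUBB6 added without DM replicate 3. No alternative called a tubulin gene higher. The 3936 genes called became 2197 under the study's expression filter by RPKM, 9813 with no minimum fold change and 2293 with a fold change of 2 as the null hypothesis. The 4184 mRNAs called became 2264, 10571 and 2510 under the same settings, and the 30 called genes of the microtubule lists became 17, 94 and 17. Each of these settings changes the genes tested or the threshold itself. Library size alone in place of TMM moved the median of all tested genes in log2 fold change from 0.03 to -0.07. The share of TUBB2A in the β pool, DM minus GM, was -0.125 percentage points and ranged from -0.258 to 0.0129 over the fits that left out a sample, turning positive without GM replicate 2. Over the same fits that of TUBB6 ranged from 0.0585 (without DM replicate 3) to 2.45, against 1.62 as reported, and that of TUBB from 0.419 (without DM replicate 1) to 2.74 (without DM replicate 3), against 1.26. With shares of counts or of transcript RPKM, 5 of 8 genes again did not overlap, and 6 did not without GM replicate 3 or without DM replicate 3. Transcript RPKM, in which shared reads count for each transcript, moved the TUBB2B difference from 1.22 to 2.46 percentage points. Whether the replicate numbers pair the samples is not stated in the labels. Deviations from the group means in log2 CPM correlated at -0.02 to -0.01 for samples of the same number and -0.01 to 0.02 for others. These values cannot exclude a pairing, since they include the noise of low counts and are centred on 3 samples each. With a replicate block 3837 genes, 4094 mRNAs, 29 microtubule genes and 4 tubulin genes were called. Genes with few counts, such as TUBA8 and CCT6B, limit what this depth can show.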
